A study of Spirodela polyrhiza with 12 samples.

Results

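Of 18099 genes measured in leaves of the giant duckweed Spirodela polyrhiza, 221 were chosen for a transcript peak at the middle of 3 temperatures. The choice asked for a minimum level and a middle level at least 2-fold the indoor one. It also asked for a level at high temperature of no more than 0.5 times the middle level. Spirodela polyrhiza is a small floating plant whose leaf-like fronds lie on the water surface and divide by budding. Its transcripts were sequenced from 12 libraries, 4 each at indoor temperature (titled CK), middle temperature (MTS) and high temperature (HTS), as entered by the submitters in the genotype field. The labels give no strain, growth stage, temperature in degrees or exposure time, and all samples are labelled as leaf. The leaf label could not be set against marker genes, because the deposited files give genes by identifier without names or functions.

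Plants meet rising temperature with a heat stress response, in which heat stress transcription factors raise the transcripts of chaperones that refold or clear damaged proteins. Many other transcripts, among them those of photosynthesis, growth and metabolism, are known to change with temperature as well, and responses to mild warming and to severe heat differ in plants. The functions of the 221 genes are not given here, so they are described by their levels.

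The members were chosen from FPKM, the fragments of a gene scaled to its length and to the library. Each library's FPKM was divided by its median over the 12316 genes that reached an FPKM of 1 in all 12 libraries, multiplied by 15, and 0.5 was added. A mean of these scaled values was taken per group. The highest group mean had to reach 5, which 11841 genes did. Of these, 1145 genes were at least 2-fold higher at middle than at indoor temperature, 626 genes had at most 0.5 times their middle level at high temperature, and 221 genes met both conditions. Membership also asked that a gene lie outside the 100 genes of highest mean FPKM at indoor temperature, which removed 0 of them. The rise and the fall of the members are thus set by the choice and are given as a description.

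Estimated counts summed to 23655239 to 28826999 at indoor temperature, 24942682 to 32467069 at middle and 25575920 to 32711880 at high temperature per library. In the 4 libraries of a group a member had a median of 177 to 226 estimated counts at indoor temperature, 658 to 1020 at middle and 120 to 223 at high temperature. A count of 0 in at least 1 library was found for 11 members, all of them at indoor or high temperature. Levels were compared after scaling, because the libraries differed in the FPKM of the typical gene. In the indoor libraries the scaling genes had a median FPKM of 21.5 to 22.8, in the middle libraries of 22.4 to 26.0 and in the high libraries of 12.1 to 14.8.

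The members ranked lower at indoor and high than at middle temperature, which the choice sets, so the ranks are a description. Ranked by mean FPKM among all 18099 genes, the median member stood at the 39.4 percentile at indoor temperature, the 63.6 percentile at middle and the 42.0 percentile at high temperature. At indoor temperature the members ran from the 15.6 to the 98.2 percentile. The median scaled level of the members was 4.11, 3.76, 3.03 and 4.23 in the indoor libraries, 10.7, 14.8, 12.6 and 13.5 in the middle libraries, and 5.37, 4.38, 3.81 and 3.68 in the high libraries, replicates 1 to 4 in turn. All 4 middle libraries lay above the other 8, and the indoor and high libraries overlapped. In bulk samples a change in the amount of RNA per cell and a change in the number of cells that express a gene cannot be told apart.

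Summed over the members, the share of a library's FPKM was 0.417% ± 0.043 at indoor temperature, 1.48% ± 0.11 at middle and 0.287% ± 0.041 at high temperature (SD, n = 4 each). On this scale, which has no further scaling of libraries, all 4 high libraries (0.232% to 0.330%) lay below all 4 indoor libraries (0.376% to 0.477%). The members thus held less of the FPKM at high than at indoor temperature, while their scaled levels overlapped. This was not particular to the members, as the FPKM of the typical gene was also lower in the high libraries. In deposited FPKM all 4 high libraries lay below all 4 indoor libraries in 34 members (15.4%). The background was 47.0% of the 15209 genes tested.

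**Figure D1:**
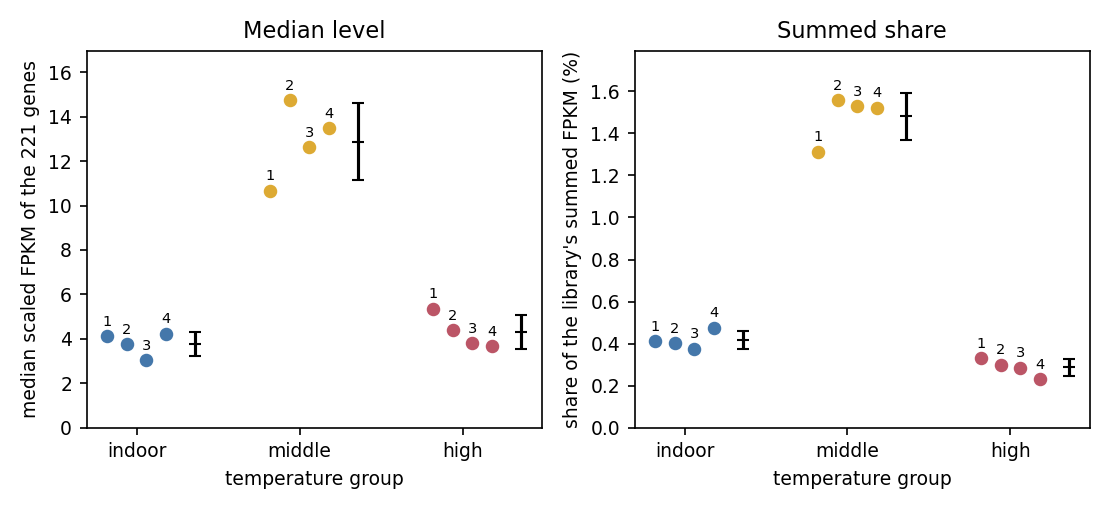
Median scaled FPKM of the 221 genes (left) and their share of each library's summed FPKM in percent (right), by temperature group. Points are libraries with their replicate number, and the black bar is the mean with its SD (n = 4); the middle libraries lie above the other 8 in both panels, and middle replicate 1 is the lowest of its group.

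The size of the peak varied widely among the members. The middle over indoor ratio ran from 2.00 to 19.3 with a median of 2.83, and the high over middle ratio from 0.0255 to 0.498 with a median of 0.388. A rise of at least 4-fold was found for 49 members, a fall of at least 4-fold for 27, and 10 members had both. The scaled level at middle temperature, with the 0.5 included, ran from 5.05 to 616 with a median of 14.3; it was under 10 in 80 members and at least 50 in 30 members. Many members stood close to the limits of the choice. The smaller of a gene's rise and fall was under 2.2-fold in 72 members, and another 122 genes just missed with a smaller ratio of at least 1.8. The 5 members just inside had a smaller ratio of 2.00 to 2.02 and the 5 genes just outside 1.99 to 2.00. At the level limit, 27 members had a level from 5.05 to 5.94, and 29 genes with both ratios fell short at 4.01 to 4.97.

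**Figure D2:**
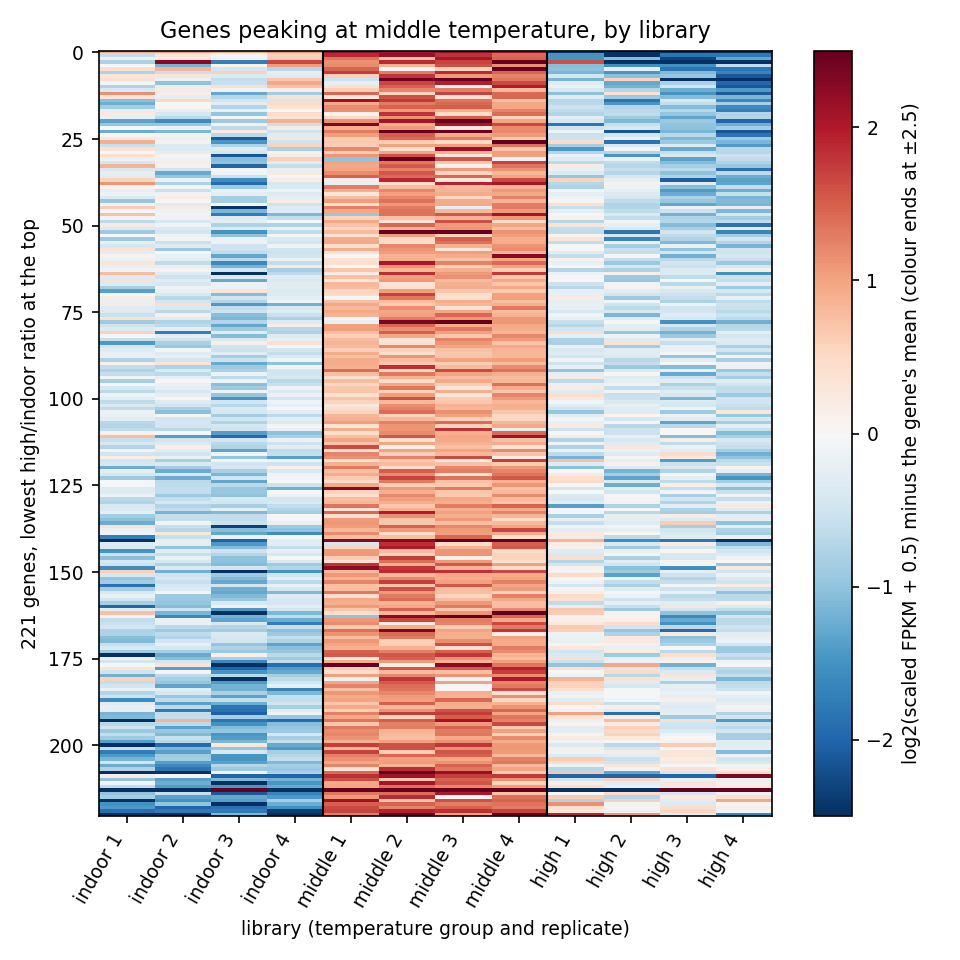
Heat map of log2(scaled FPKM + 0.5) of the 221 genes, each minus its own mean over the 12 libraries, with libraries in columns by group and genes in rows ordered by their high over indoor ratio, lowest at the top. Red is above and blue below the gene's mean; the 4 middle columns are red by the choice of genes, and the high columns pass from darker blue than the indoor columns at the top to paler blue at the bottom.

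A single member carried a sizeable part of the summed FPKM. Spipo22G0041400.v2 had the highest mean FPKM at middle temperature of all members. Its FPKM was 301, 389, 302 and 524 in the indoor libraries, 841, 641, 1396 and 1022 in the middle libraries, and 78.3, 102, 41.4 and 73.2 in the high libraries. The 3 groups did not overlap, with middle highest and high lowest. It made up 10.5% ± 2.1 of the members' FPKM at indoor temperature, 7.78% ± 2.36 at middle and 3.03% ± 1.02 at high temperature (SD, n = 4). In log2 units it changed by 1.25 ± 0.29 (SE) between middle and indoor temperature and by -2.93 ± 0.31 between high and middle temperature in edgeR's fit to the estimated counts with TMM scaling. TMM scaling picks library factors on the assumption that the bulk of genes keep their level. Between high and indoor temperature, a ratio that the choice of members did not limit although it used both groups, its log2 fold change was -1.68 ± 0.30, with an edgeR quasi-likelihood p of 0.000683 after Benjamini-Hochberg adjustment.

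The 10 members with the highest FPKM at middle temperature, including that gene, ranged in mean FPKM from 31.2 to 379 at indoor temperature, from 273 to 975 at middle and from 32.1 to 177 at high temperature. They held 37.7% ± 6.2, 39.2% ± 4.1 and 37.6% ± 3.0 of the members' FPKM in these groups in turn (SD, n = 4 each). Their share of the members' total was thus alike in the 3 groups, although their high over indoor ratios ran from 0.316 to 3.96.

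The largest rise at middle temperature was that of Spipo23G0025000.v2. Its FPKM was 3.89, 4.04, 12.7 and 4.57 in the indoor libraries, 71.1, 252, 62.7 and 219.7 in the middle libraries, and 74.9, 41.5, 14.9 and 4.92 in the high libraries. All middle libraries lay above all indoor libraries, but high replicate 1 lay above middle replicates 1 and 3, and high replicate 4 lay within the indoor range. In scaled values high replicate 2, at 43.3, also lay above middle replicate 3, at 40.7. The spread within groups was large, with a mean FPKM of 151 ± 98.6 at middle and 6.30 ± 4.26 at indoor temperature (SD, n = 4 each). Its log2 fold change between middle and indoor temperature was 4.38 ± 0.82 (SE), and 5.07 without indoor replicate 3.

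The fall of Spipo23G0025000.v2 at high temperature rested on few libraries. The mean deposited FPKM was 34.1 ± 31.3 at high and 151 ± 98.6 at middle temperature. These means have no further scaling of libraries, so they lie farther apart than the TMM-scaled levels of the edgeR fit. In that fit the log2 fold change of -1.36 ± 0.72 did not pass the adjusted threshold of 0.05. It was -2.04 without high replicate 1 and -1.01 without high replicate 4. Between high and indoor temperature the gene was higher by a log2 fold change of 3.02 ± 0.78, with an adjusted p of 0.0115 by the same edgeR test; the ratio that named the gene used the same indoor libraries. This value was 2.34 without high replicate 1 and 3.65 without indoor replicate 3, and the gene was called in all 12 fits that left out a library.

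The 10 members with the largest middle over indoor ratio, from 6.30 to 19.3 at that step, had a high over indoor ratio with a median of 2.86, in a range of 0.674 to 7.47. The ratio that picked them used the same indoor libraries. Their median mean FPKM was 4.13 at indoor temperature, 38.5 at middle and 9.47 at high temperature.

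Spipo0G0104700.v2 was named for the lowest high over middle ratio and also had the lowest high over indoor ratio. Its FPKM was 12.05, 12.5, 11.4 and 13.6 in the indoor libraries and 29.6, 31.7, 30.6 and 30.2 in the middle libraries, and all 4 high libraries had a count of 0. The libraries of each group lay close together, and the 3 groups did not overlap. Between middle and indoor temperature the log2 fold change was 1.17 ± 0.14 (SE). Set to a floor of 12 estimated counts in each high library, its high level was at least 68.7-fold lower than at middle temperature and at least 30.4-fold lower than at indoor temperature.

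Spipo21G0002400.v2 was named for the next lowest high over indoor ratio, so its values are a description. Its FPKM was 3.94, 7.98, 6.49 and 10.2 in the indoor libraries, 25.5, 36.2, 24.8 and 20.1 in the middle libraries, and 1.18, 0.315, 0.767 and 0.697 in the high libraries. The groups did not overlap, and each high library was below the lowest indoor library. The log2 fold changes were 1.76 ± 0.32 (SE) between middle and indoor, -4.32 ± 0.36 between high and middle and -2.56 ± 0.34 between high and indoor temperature.

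**Figure D3:**
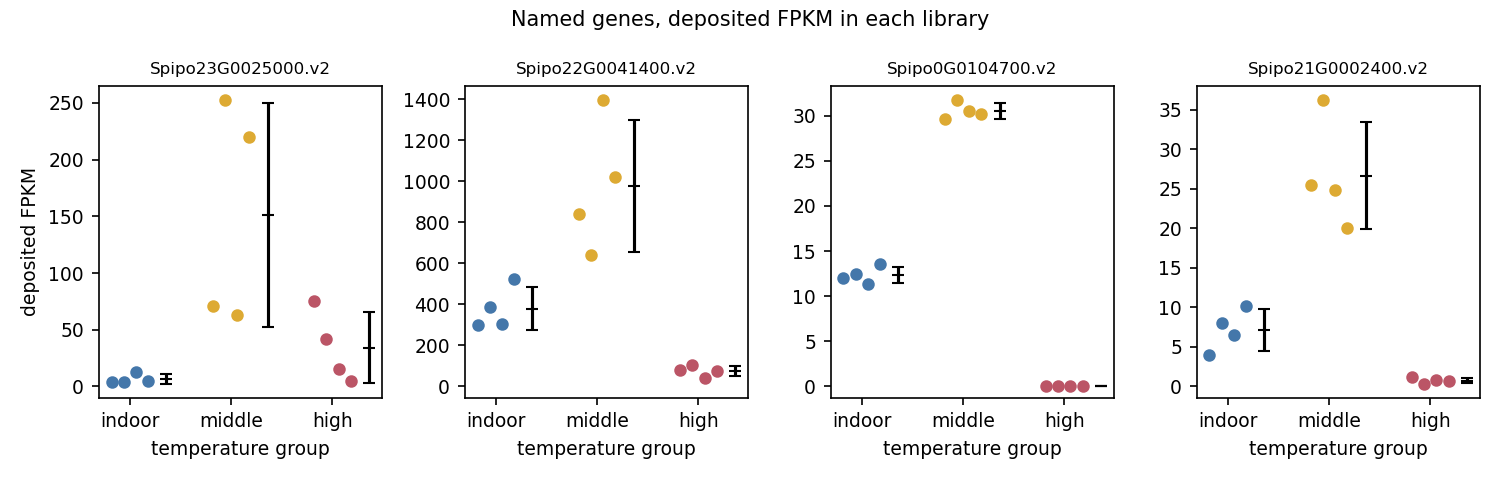
Deposited FPKM of 4 genes in each library by temperature group, with libraries as points (replicates 1 to 4 from left to right) and the mean with its SD as the black bar (n = 4). The scale differs between panels; the middle and high libraries overlap for Spipo23G0025000.v2 and not for the other 3 genes, and Spipo0G0104700.v2 is at 0 in all high libraries.

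The members were set beside a fit over all genes. All 221 members reached an FPKM of 1 in 4 or more libraries and were among the 15209 genes tested; 212 would have passed on the indoor and high libraries alone, and 9 passed only with the middle libraries. Between middle and indoor temperature 199 members were called higher (edgeR, quasi-likelihood F-test, adjusted p under 0.05 after Benjamini-Hochberg correction), against a background of 19.2% of all genes tested. Between high and middle temperature 198 were called lower, against a background of 14.5%. At both steps 187 members (84.6%) were called, against 5.82% of the genes tested. Nothing is read from these shares, because the choice used the same contrasts. The median log2 fold change of the members was 1.62 between middle and indoor temperature, where that of all genes tested was -0.02, and -1.45 between high and middle temperature, where that of all genes tested was 0.0033. Scaled to library totals, the medians of all genes tested were 0.12 and -0.82 at these steps, and those of the members 1.76 and -2.26.

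The 34 members not called at both steps differed more between replicates. Their median coefficient of variation over the scaled values of a group was 76.3% at indoor temperature, 55.3% at middle and 65.2% at high temperature, against 30.1%, 22.6% and 33.1% in the 187 called members. Their median rise was 2.96-fold, against 2.79-fold in the called members, and their median high over middle ratio was 0.318, against 0.401. The call at both steps selects for low spread, so the difference in spread is a description.

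Counted by library instead, the groups did not overlap in most members. In scaled values all 4 middle libraries lay above all 4 indoor libraries in 188 members (background 20.5%) and above all 4 high libraries in 182 (background 15.2%). They lay above the other 8 libraries together in 166 members (background 6.98%). In deposited FPKM these numbers were 190 (background 23.9%), 213 (background 54.9%) and 188 (background 17.4%). Again the choice raised these counts, and they are given as a description.

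The test reached further than the 221 members. Genes called at both steps numbered 885, and the 187 members among them were 21.1% of that list and 84.6% of the members. The other genes of the list missed the limits on fold or level.

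The choice of members set no limit on the ratio between high and indoor temperature, although it used the values of both groups. In scaled values most members, like most other genes, had a level at high temperature near their indoor level. The high over indoor ratio of scaled values had a median of 1.06, and 158 members (71.5%) lay within 1.5-fold of the indoor level. Among the 11620 other genes that reached the level of 5, the median ratio was 0.979 and 64.3% lay within 1.5-fold. A further 25 members were 1.5-fold to 2-fold above the indoor level and 17 at least 2-fold above it, and 12 were 1.5-fold to 2-fold below and 9 at least 2-fold below. The members had lower levels than the other genes, with medians of 4.57 against 17.1 at indoor and 4.98 against 17.3 at high temperature. The 0.5 added to each value is thus a larger part of the members' levels and draws their ratios more toward 1. Its part in the 2 shares was not tested.

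Between high and indoor temperature 31 members (14.0%) were called in the same edgeR fit, against a background of 32.8% of the genes tested. Of these, 23 were higher, against a background of 17.1%, with log2 fold changes from 0.68 to 3.02 and a median of 1.09. The other 8 were lower, against a background of 15.8%, and without high replicate 1 this number was 14. All 8 lower members and 22 of the 23 higher ones were also called at both steps. At an unadjusted p under 0.05 the members called numbered 48 (21.7%), against a background of 43.5%. Members called at both steps and not between high and indoor temperature numbered 157 (71.0%), against a background of 4.64%, which the choice raises. The lower share of calls between high and indoor temperature stands beside a larger spread of the members' replicates and beside the use of both groups in the choice, and the part of either in it was not tested. A missed call does not show that a member was back at its indoor level.

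The balance of higher and lower calls between high and indoor temperature changed with the scaling, in the members and in all genes tested. When the libraries were scaled to their totals and not by TMM, 76 members (34.4%) were called, against a background of 64.9%. Of these, 6 (2.71%) were higher, against a background of 7.69%, and 70 (31.7%) were lower, against a background of 57.2%. The median log2 fold change of the members was then -0.59 in place of 0.09. The same change of scaling moved the median of all genes tested from -0.04 to -0.73, so relative to that median the members stood at 0.13 with TMM and 0.14 with library totals. In scaled values all 4 high libraries lay above all 4 indoor libraries in 21 members (background 16.3%) and below them in 8 (background 14.0%). In deposited FPKM they lay above in 3 (background 6.58%) and below in 34 (background 47.0%).

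**Figure D4:**
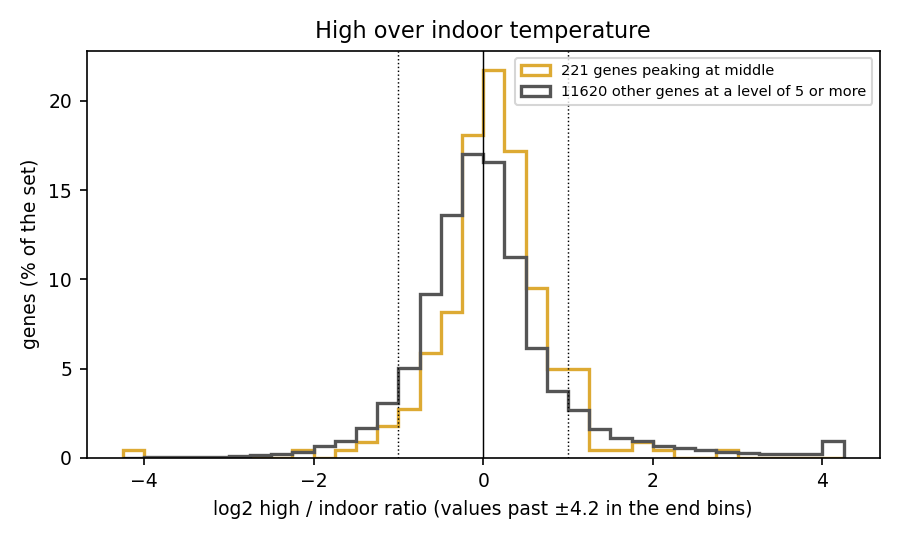
Distribution of the log2 ratio of mean scaled values, with 0.5 added, between high and indoor temperature for the 221 genes and for the 11620 other genes that reached a level of 5, as percent of each set in bins of 0.25. Dotted lines mark 2-fold; 158 of the 221 genes lie within 1.5-fold of the indoor level.

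Replicates of the members differed more than those of other genes, given here as a description. The median coefficient of variation of scaled values within a group was 33.4% at indoor temperature, 25.2% at middle and 34.9% at high temperature for the members, against 18.3%, 15.9% and 20.6% for the other genes at the level of 5. At indoor and high temperature the members were also less abundant than those genes, with a median mean FPKM of 6.03 against 24.6 at indoor and 4.16 against 15.4 at high temperature. At middle temperature the median mean FPKM was 21.9 against 25.8. A larger spread was not particular to these genes. The 207 genes of the mirror rule, at least 2-fold lower at middle than at both other temperatures, had medians of 38.1%, 28.5% and 36.1%. The 921 genes that rose at least 2-fold at middle temperature and stayed above 0.5 times that level at high temperature had 24.9%, 19.8% and 22.3%.

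The spread had a direction by library. In the high group, replicate 1 was the highest of the 4 for 103 members (46.6%) and replicate 4 for 14 (6.33%), where 25.2% and 28.0% of the other genes at the level of 5 had these libraries highest. In the middle group, replicate 2 was highest for 85 members (38.5%) and replicate 1 lowest for 86 (38.9%), against 28.7% and 22.3% of the other genes. In the indoor group, replicate 3 was lowest for 108 members (48.9%), against 25.4% of the other genes. The TMM factor was 0.767, 0.742, 0.689 and 0.630 in high replicates 1 to 4, the same order as the members' medians. In the middle group it was 1.14 in replicate 1, the lowest, and 1.39 in replicate 2, the highest. In the indoor group it was 1.126, 1.131, 1.092 and 1.202 in replicates 1 to 4. There replicates 1 and 2 stood in the reverse order of the members' medians. The part of these factors in the order was not tested.

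The peak was then read in libraries that did not choose the genes. The choice was repeated 4 times, each time without 1 replicate number in each group. The genes chosen from 9 libraries were read in the 3 libraries left out, 1 per group. Not all of these genes were members. With replicates 1 to 4 left out in turn, 196, 165, 179 and 166 of the chosen genes were also members. The shares are taken over all chosen genes, so they do not describe the members alone. Without replicates 2, 3 and 4 in turn, 215, 213 and 210 genes were chosen, and in the unused libraries the middle library lay above both others for 88.8%, 95.3% and 92.4% of them. For all genes at the level of 5, 33.0%, 32.2% and 29.3% showed this. Without replicate 1, 326 genes were chosen, and 71.2% of them had the unused middle library highest, against 28.8% of all genes at the level of 5.

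In the unused libraries the median rise was smaller than in those that chose the genes for 3 of the 4 numbers, and the median fall for 2. With replicates 1 to 4 left out in turn, the median middle over indoor ratio was 1.95, 2.52, 3.27 and 2.58 in the unused libraries, and 2.92, 2.92, 2.71 and 3.04 in those that chose. The median high over middle ratio was 0.673, 0.453, 0.391 and 0.385 in the unused libraries, and 0.371, 0.390, 0.397 and 0.395 in those that chose. A rise and a fall of at least 2-fold in the single unused libraries was found for 20.9%, 49.8%, 65.3% and 51.9% of the chosen genes, against 1.73%, 3.66%, 3.82% and 3.35% of all genes at the level of 5. The peak was thus weakest in the libraries numbered 1, where middle replicate 1 held the lowest members' share of its group and high replicate 1 the highest. Genes share libraries, so these shares are descriptions with no test.

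**Figure D5:**
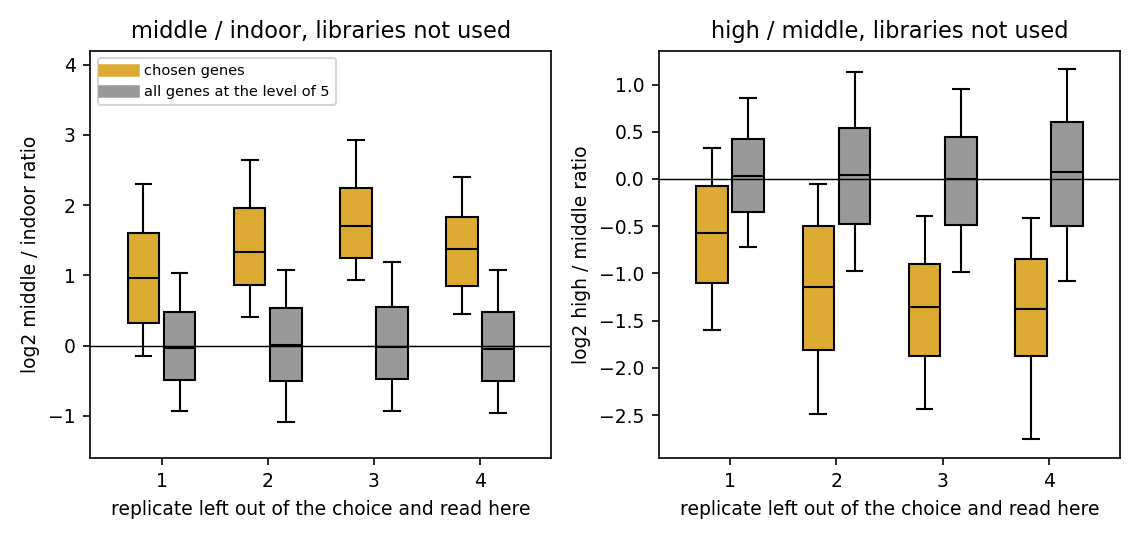
Log2 ratios of scaled values, with 0.5 added, between middle and indoor (left) and high and middle (right) in the 3 libraries not used to choose the genes, for each replicate number left out. Boxes show the quartiles and median and whiskers the 10th and 90th percentiles; the genes chosen from the other 9 libraries lie above 0 on the left and below 0 on the right in the median for every number, with the smallest distance for replicate 1.

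Outside their levels the members had few shared features that the table holds. Transcript length, taken as the estimated count per FPKM relative to the median of all genes, had a median of 0.973 in the members, with quartiles of 0.509 and 1.46. In the other genes at the level of 5 the median was 1.01, with quartiles of 0.603 and 1.55.

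Members whose identifiers follow each other within an identifier prefix (Spipo with a number) were set beside the other genes. By identifier order 11 pairs of members were next to each other, and the 22 genes in them were 9.95% of the members, where 2.30% of the 17878 other genes stood next to a member. This too was seen in other sets. Of the 921 genes that rose and were not halved, 28.8% stood next to another of that set, against 8.72% of the genes outside it, and of the 207 genes of the mirror rule 14.0%, against 2.08%. Within the 11 pairs the log2 middle over indoor ratios differed by a median of 0.65, from 0.0087 to 1.53. Neighbouring genes can be near-identical copies between which reads are divided, and whether these pairs are such copies was not tested, since no genome was used here.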

How the data were processed

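Poly(A) RNA of 12 leaf samples was made into dUTP libraries with unique molecular identifiers and sequenced in read pairs, per the labels' protocols. Tools listed without roles in the submitters' processing notes are StringTie 1.3.4d, HISAT2 2.0.4, cutadapt 1.9, edgeR, DESeq2 and UMI-tools. Build, annotation and strand setting of the counting were not given in the sources used here, so overlapping genes and near-identical copies are uncertain. The deposited table gives FPKM and estimated counts per gene and library, per the file headers. The deposited counts were FPKM times a constant per gene and a factor per library, rounded up, in 18099 of 18099 genes (tolerance 0.05%), against 10712 with rounding to the nearest; they were used as deposited. A count of 4 was the most frequent one above 0 (1807 cells of the table, against 470 cells with 1), so 0 was bounded at a floor of 12 per library (3 fragments of 4 counts), which covers counting error only.

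Genes with FPKM of at least 1 in 4 or more libraries were tested (15209 genes) by quasi-likelihood in edgeR 4.0.16 (R 4.3.3) with TMM, all 12 libraries in 1 fit with a term per group, Benjamini-Hochberg adjustment over all genes tested, called under 0.05. A standard error is the size of the log2 fold change over the root of F. Alternatives used limma 3.58.1 on log2(FPKM + 1) or log2(FPKM + 0.1) after quantile normalization, DESeq2 1.42.0, other scalings, no filter, a replicate block and each library left out. The members and lists were chosen with earlier results of these data known. Named genes are the members with the largest middle over indoor ratio, the highest FPKM at middle temperature, the lowest high over middle ratio and the lowest high over indoor ratio, taking the next where a gene repeats; the files pair no identifiers with names, and lists by function were not used here. No 2 replicates were identical: over 18 pairs, chi-square over degrees of freedom was 50.2 to 186. The labels do not state separate cultures for replicates, so p-values cover the differences among these libraries only, and those can be technical.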

Additional observations from a re-analysis of the deposited data

Results flagged for a closer look

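Among 18 sets of 4 libraries (4 genes, the members' median scaled level and their summed share, in 3 groups), 2 held a library standing farther from its group than the critical value of Dixon's test for 4 samples allows. About 1 in 20 sets does so by chance. The FPKM of Spipo23G0025000.v2 was 12.7 in indoor replicate 3, against 3.89 to 4.57 in the other indoor libraries, so that the gap made up 0.922 of the group's spread. The members' share of the summed FPKM was 1.31% in middle replicate 1, against 1.52% to 1.56% in the other middle libraries, where the gap made up 0.852 of it. Without middle replicate 1 the choice gave 272 genes, of which 209 were among the 221.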

How the results depend on the processing

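Of 143 summary values over the alternatives, 134 stayed within 1.5 times the value reported or within 1 SD of it. The SD was used for the share of genes with the middle library highest and came from those same shares. Many of the 143 values count members called at the steps that the choice thresholds, so their steadiness is largely set by the choice. For the named genes 239 of 240 fold changes had the direction and the call reported. The exception was Spipo23G0025000.v2 between high and middle temperature, which was called with library totals (log2 fold change -2.16, against -1.36 as reported). Membership fixes the direction at both steps, and leaving out a library of the group not compared hardly moves a fold change. Both tallies are thus descriptions. The number of members, 221 as reported, was 916 on deposited FPKM with no scaling, 141 at a level of 10, 42 at 3-fold and 775 at 1.5-fold; the level and fold limits are stricter or looser by construction. It was 203 to 272 with a library left out, and 209 with TMM-scaled counts per length. With library totals 76 members were called between high and indoor temperature, 6 higher and 70 lower, where 64.9% of all genes tested were called; 14 of the 31 reported were among the 76. Leaving out a library gave 7 to 14 lower members, and leaving out a replicate number gave 71.2% to 95.3% of chosen genes with the middle library highest; the cause was not tested. The count at both steps, whose alternatives were added after seeing the data, was 156 to 190 with a library left out. With the replicate number as a block, 199, 187 and 31 members were called between middle and indoor, high and middle, and high and indoor temperature, and 178 at both steps. Same-numbered libraries correlated between -0.29 and 0.29 in their deviations, and a library correlated best with its own number in 2 of 12 cases. These values show no clear pairing of the samples by number, but so few weak correlations cannot exclude one. Depth limits the 30 members with under 12 counts in some library.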

Other observations

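Members were found under 31 of the 33 number prefixes of the identifiers. In the 15 prefixes with at least 500 genes they made up 0.383% to 2.07% of the genes, against 1.22% of the whole table. The opposite course, at least 2-fold lower at middle than at both other temperatures under the same limits, was shown by 207 genes, against the 221 that peaked there. By mean FPKM the median rank of those 207 genes among all genes was the 87.9 percentile at indoor, the 65.7 percentile at middle and the 83.4 percentile at high temperature. At middle temperature the median member stood at the 63.6 percentile. The 2 choices push the indoor and high levels of the sets apart, so these ranks are a description.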
